A study of Mus musculus with 6 samples.

Results

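The circadian clock genes were described in liver macrophages of mice with diet-induced metabolic dysfunction-associated steatohepatitis (MASH), with and without the transcription factor Egr2. The 10 genes Arntl, Clock, Per1, Per2, Per3, Cry1, Cry2, Nr1d1, Nr1d2 and Dbp were taken by symbol, whatever their values, from the 13886 genes of the bulk RNA-seq table, and all 10 were found. The table gives TPM, the abundance of a transcript relative to its length and to the library total. There were 3 libraries of Lyz2cre/+.Egr2fl/fl mice (cKO) and 3 libraries of Egr2fl/fl mice (WT), each of a separate mouse, and all 6 mice were fed CDA-HFD, a high-fat diet that lacks choline and holds amino acids in place of protein. The floxed Egr2 alleles were shared by both genotypes. In cKO mice Cre is driven by the Lyz2 promoter, which is active across monocytes, macrophages and neutrophils. WT mice carried no Cre, so that an effect of Cre itself cannot be told apart from loss of Egr2. The study sorted CD11b+ Ly6G- F4/80+ cells with low Ly6C, and its methods describe male mice that were young adults when feeding began. The labels do not give the weeks of diet of these samples, and the time of day at which livers were taken is not given in the sources used here.

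The clock is a transcriptional feedback loop that runs in nearly every cell. Clock and Bmal1 (the product of Arntl) bind E-boxes and activate the Per and Cry genes, whose products return to the nucleus and inhibit them. In a linked loop the nuclear receptors Rev-erbα (Nr1d1) and Rev-erbβ (Nr1d2) repress Arntl through Ror elements, and Dbp carries the rhythm to output genes through D-boxes. In tissues with a running clock, Arntl peaks nearly opposite in phase to Nr1d1, Dbp and the Per genes. In macrophages the clock gates cytokine release, and Rev-erbs repress inflammatory genes. The level of a clock gene in a sample therefore depends on the hour at which the sample was taken.

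Promoter sequences from RefSeq (GRCm38.p6, 250 bases before to 50 bases after each start) were matched for 9 of the 10 genes, in 13 windows. Per2 had no window in the table used here. The stretches below are shown because they carry the letters through which this loop is known to be wired, or those known to be bound by Egr factors. Each is printed 5′ to 3′ on the gene's strand, with matches to the searched motifs in capitals.
Arntl, chr7:113207405-113207464, plus strand, 60 to 1 bases before the start, 2 Egr cores: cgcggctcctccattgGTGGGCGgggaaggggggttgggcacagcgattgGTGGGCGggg
Per1, chr11:69098769-69098828, plus strand, 180 to 121 bases before an internal start, an E-box and a Rev-erb and Ror site: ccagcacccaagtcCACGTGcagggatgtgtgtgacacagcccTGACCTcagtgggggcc
Per3, chr4:151044811-151044880, minus strand, 215 to 146 bases before the start, 2 D-boxes and an Egr core between them: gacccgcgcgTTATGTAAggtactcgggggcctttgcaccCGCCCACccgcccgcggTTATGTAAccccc
Cry1, chr10:85185090-85185149, minus strand, 95 to 36 bases before the start, a variant E-box and an E-box: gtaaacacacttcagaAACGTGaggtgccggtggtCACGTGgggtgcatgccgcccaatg
Nr1d1, chr11:98775378-98775437, minus strand, 60 to 1 bases before the start, a variant E-box: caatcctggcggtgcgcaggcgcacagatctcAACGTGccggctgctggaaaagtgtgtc
Bhlhe41, a clock repressor outside the 10 genes, chr6:145865541-145865600, minus strand, 180 to 121 bases before the start, an E-box: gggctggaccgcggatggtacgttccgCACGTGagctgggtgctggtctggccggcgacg

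The motifs were searched as exact letters on both strands, and none overlapped another in the stretches shown. The E-box (CACGTG) was held by the windows of 2 member genes, Per1 and Cry1, and by 7.15% of all 32851 promoter windows. The variant E-box (CACGTT) was held by Cry1, Cry2 and Nr1d1 and by 4.68% of all windows. The Rev-erb and Ror site (AGGTCA) was held by Arntl, Clock, Per1 and Nr1d2 and by 16.3% of all windows. The D-box (TTANGTAA) was held by Per3 alone among the members and by 2.32% of all windows. The cAMP response element (TGACGTCA) was in no member's window and in 1.79% of all windows. The Egr core (GTGGGCG) was held by Arntl, Clock, Per3 and Nr1d2 and by 7.97% of all windows. These are counts of genes set beside shares of windows, and a gene with more windows has more room for a match. Counted by window, the 6 motifs were held by 2, 3, 4, 1, 0 and 6 of the 13 member windows, in that order. The 2 windows of Arntl overlap and hold the same Egr cores. Such matches describe the letters of the window and say nothing of binding in these cells.

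The targeted gene was low in all 3 cKO libraries. Egr2, a zinc-finger transcription factor, had 9.08, 9.64 and 10.5 TPM in cKO libraries, against 122.6, 120.2 and 126.1 TPM in WT libraries (log2 difference -3.53 ± 0.08 SE, adjusted p = 5.75e-06 by limma). Defining macrophage markers were present, with 10 of 10 above 1 TPM and sums of 22613 to 22975 TPM in cKO and 23589 to 26508 TPM in WT, and 3 of them (Adgre1, Fcgr1 and Mertk) were called higher and 1 (Lyz2) lower in cKO. The label Lyz2cre/+ places Cre at the Lyz2 gene in cKO mice. The part of that allele in the lower Lyz2 was not tested. Markers of other cell types and of macrophage states moved with genotype. For scale, limma called 4.38 percent of all genes tested higher and 1.87 percent lower in cKO. The sum over 24 liver endothelial markers was 868 to 977 TPM in cKO and 189 to 217 TPM in WT, with 23 of 24 higher in cKO, and all 24 had a mean above 1 TPM. Kupffer cell markers summed to 4771 to 5882 TPM in cKO and 1644 to 2145 TPM in WT, with 7 of 8 higher. Lipid-associated macrophage markers summed to 3613 to 4109 TPM in cKO and 5575 to 5954 TPM in WT, with 6 of 8 lower. In bulk libraries, fewer cells of a type and less RNA per cell cannot be told apart. Hepatocyte markers summed to 140.8 to 299.7 TPM in cKO and 140.7 to 772.7 TPM in WT. Of the 12, 0 were called by limma, 1 had an unadjusted p under 0.05 and 1 was called by voom. The shares over all genes were 6.24, 19.6 and 8.41 percent. Of 6 neutrophil markers 3 were above 1 TPM. Their sums were 3.44 to 6.67 TPM in cKO and 8.17 to 19.3 TPM in WT. Limma called 2 of these 3 lower, and voom called 1. Of 8 lymphocyte markers 3 were above 1 TPM, with sums of 55.3 to 63.9 TPM in cKO and 32.3 to 47.4 TPM in WT and 1 called higher. Of 8 stellate cell and fibroblast markers 6 were above 1 TPM, with 0 called by limma or voom and 0 at an unadjusted p under 0.05. The part of these cell types in the values below was not tested. Whole reads recovered from the TPM steps gave at least 6729013 to 7487151 reads in cKO libraries and at least 6497770 to 8569062 reads in WT libraries.

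No clock gene passed the test between genotypes. The 13777 genes that averaged 1 TPM or more, all 10 clock genes among them, were compared on log2(TPM + 1) by limma, and the threshold was a Benjamini-Hochberg adjusted p of 0.05. Of the 10 clock genes, 0 were called higher and 0 lower in cKO, against 6.24 percent of all genes tested called in either direction. At an unadjusted p under 0.05 limma gave 0 of 10 members, against 19.6 percent of all genes. The voom test on recovered reads, an alternative chosen after seeing the data, also called 0 of 10 members, against 8.41 percent of all genes, and gave 2 of 10, Arntl and Nr1d1, an unadjusted p under 0.05, against 20.0 percent of all genes. The differences were positive for 6 genes and negative for 4, with a median of 0.10 over the members and 0.04 over all genes tested (log2, cKO minus WT). The genotypes did not overlap for 1 of 10 members (Per3), against 25.2 percent of all genes. These p-values rest on the spread between these 3 and 3 mice, which limma draws toward the trend over all genes of like level. For low genes this matters: Per3 had an SE of 0.22, though its residual SD was 0.08. Without the trend the adjusted p by limma was 0.338 for Per3 and 0.349 for Per2, against 0.730 and 0.628 with it. The intervals given below show, under the main fit, the sizes of change that remain possible.

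**Figure D1:**
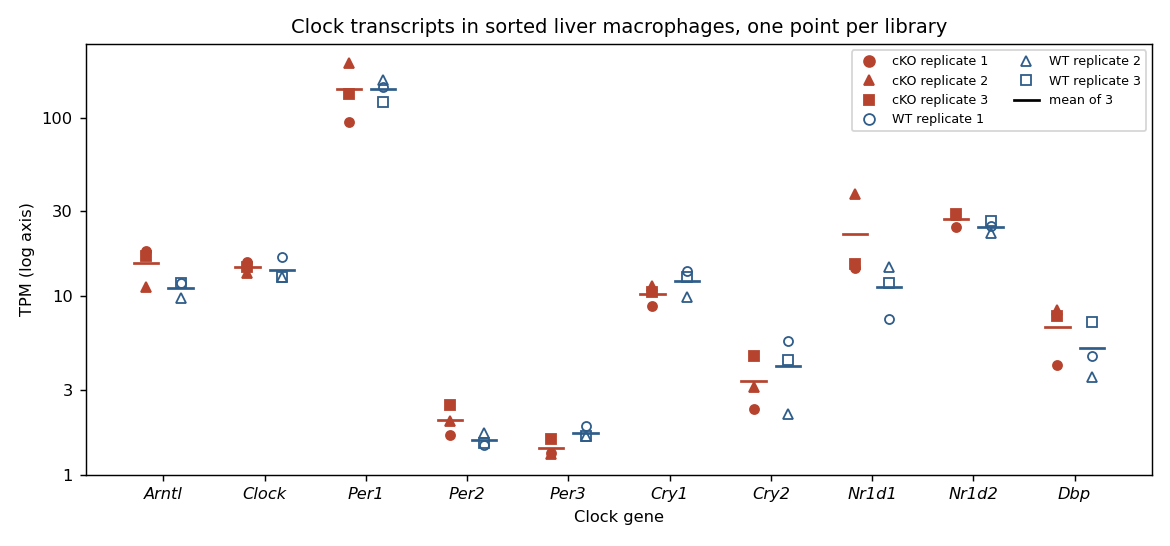
TPM of the 10 clock genes (log axis) in each cKO and WT library, as points, with the mean of the 3 libraries of a genotype as a line. Per1 lies above all others, at 94.8 to 202.3 TPM, and the points of cKO and WT overlap for every gene but Per3.

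The levels, which compare across genes because TPM is per length, spanned a wide range. Per1 was the most abundant clock transcript, with a mean of 144.7 ± 36.6 TPM over the 6 libraries (SD), and its lowest library stood above the highest library of every other member. It was followed by Nr1d2 at 25.9 ± 2.47, Nr1d1 at 16.9 ± 10.6, Clock at 14.3 ± 1.56, Arntl at 13.3 ± 3.28 and Cry1 at 11.2 ± 1.88 TPM. The ranges of neighbours in that run overlapped, so that the order of neighbours is not resolved by range. Within libraries Nr1d2 was above Nr1d1 in 5 of 6. The lowest library of Nr1d2 (22.6 TPM) was above the highest of Clock (16.6 TPM), Arntl (17.9 TPM) and Cry1 (13.9 TPM). Cry1 was above Dbp (5.95 ± 2.08 TPM) with no overlap. Dbp overlapped Cry2 (3.71 ± 1.38 TPM), Cry2 overlapped Per2 (1.80 ± 0.371 TPM), and Per2 overlapped Per3 (1.57 ± 0.214 TPM). Within each library, though, Cry2 was above Per2. Both partners of the activating heterodimer thus had levels within the spread of each other, whereas Per1 far exceeded the other Per genes.

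Of the activators, Arntl leaned higher in cKO without passing the test. Arntl (chromosome 7, 113207465 to 113314126, plus strand, GRCm38) encodes Bmal1, the clock component whose loss stops rhythms in mice. Its level was 17.9, 11.3 and 16.8 TPM in cKO libraries, against 11.9, 9.79 and 11.9 TPM in WT libraries. Libraries cKO 1 and cKO 3 stood above all WT libraries, and cKO 2 lay inside the WT range. The means were 15.3 ± 3.55 TPM in cKO and 11.2 ± 1.21 TPM in WT (SD, n = 3 each). The log2 difference was 0.40 ± 0.18 (95% interval -0.03 to 0.83, adjusted p = 0.285 by limma). Leaving out 1 library moved it between 0.28 without cKO 1 (adjusted p = 0.580) and 0.59 without cKO 2 (adjusted p = 0.0684).

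Clock, the partner of Bmal1, did not move detectably. Clock (chromosome 5, 76209868 to 76304792, minus strand) had 15.7, 13.5 and 14.6 TPM in cKO libraries, against 16.6, 12.8 and 12.9 TPM in WT libraries. The cKO values all lay within the WT range. The log2 difference was 0.05 ± 0.13 (adjusted p = 0.881 by limma), and its 95% interval ran from 0.839-fold to 1.28-fold.

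The Per genes encode the period proteins, which carry the inhibitory complex with the Cry proteins, and Per1 is also induced acutely by cAMP and glucocorticoid signals. Per1 (chromosome 11, 69095217 to 69109960, plus strand) had 94.8, 202.3 and 136.8 TPM in cKO libraries, against 149.1, 162.7 and 122.4 TPM in WT libraries. The lowest and the highest library of the 6 were both cKO, and the means were 144.6 ± 54.2 TPM in cKO and 144.7 ± 20.5 TPM in WT. For Per1 the log2 difference was -0.06 ± 0.26 (95% interval -0.66 to 0.54, adjusted p = 0.938 by limma).

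Per2 and Per3 were close to the lower limit of what these libraries measure. Per2 (chromosome 1, 91415982 to 91459324, minus strand) had 1.67, 1.99 and 2.46 TPM in cKO libraries, against 1.46, 1.71 and 1.51 TPM in WT libraries, from 26 to 42 reads a library. WT 1 and WT 3 were below all cKO libraries and WT 2 lay among them, and the log2 difference was 0.24 ± 0.22 (adjusted p = 0.628 by limma). Per3 (chromosome 4, 151003652 to 151044665, minus strand) is thought to be dispensable for the core loop in mice. It had 1.33, 1.31 and 1.59 TPM in cKO libraries, against 1.87, 1.66 and 1.64 TPM in WT libraries.
Every cKO value of Per3 lay below every WT value, an order that 8.27 percent of all genes tested share. It rested on 21 to 38 reads a library, and the highest cKO value (1.59 TPM, exact 95% Poisson interval of counting 1.06 to 2.30) and the lowest WT value (1.64 TPM, 1.10 to 2.36) were not separated by counting error. The log2 difference was -0.18 ± 0.22 (95% interval -0.69 to 0.34, adjusted p = 0.730 by limma).

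The cryptochromes, the stronger repressors of Clock and Bmal1, gave negative differences that did not pass the test. Cry1 (chromosome 10, 85131700 to 85185064, minus strand) had 8.84, 11.4 and 10.6 TPM in cKO libraries, against 13.9, 9.87 and 12.8 TPM in WT libraries. WT 1 and WT 3 were above all cKO libraries and WT 2 lay among them, and the log2 difference was -0.22 ± 0.16 (95% interval -0.59 to 0.15, adjusted p = 0.522 by limma). Cry2 (chromosome 2, 92403646 to 92434043, minus strand) had 2.33, 3.10 and 4.64 TPM in cKO libraries, against 5.63, 2.21 and 4.38 TPM in WT libraries. Both its highest and its lowest library were WT, and the log2 difference was -0.19 ± 0.32 (95% interval -0.95 to 0.58, adjusted p = 0.817 by limma).

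The Rev-erb genes encode heme-binding nuclear receptors that act as repressors. Nr1d1 had the largest difference among the members and the widest interval. Nr1d1 (chromosome 11, 98767932 to 98775333, minus strand) had 14.5, 37.7 and 15.2 TPM in cKO libraries, against 7.47, 14.6 and 11.8 TPM in WT libraries. Library cKO 2 was 37.7 TPM (exact 95% Poisson interval of counting 33.4 to 42.5), far above the other cKO libraries, and cKO 1 was level with WT 2. The means were 22.5 ± 13.2 TPM in cKO and 11.3 ± 3.61 TPM in WT, a ratio of 1.98. Their log2 difference was 0.84 ± 0.39 (95% interval -0.07 to 1.75, adjusted p = 0.294 by limma). Without cKO 2 it was 0.41, with an adjusted p of 0.472.

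A neighbour bears on the reading of Nr1d1. Thra, the thyroid hormone receptor α gene, lies on the opposite strand, and the 3′ exons of these genes share 263 bases, 8.55% of the exonic bases of Nr1d1. Whether reads were counted by strand is not given in the sources used here, and the methods name a directional library kit only for another macrophage sort. Without strand the reads of the shared bases cannot be told apart. Thra had 17.6, 18.3 and 18.2 TPM in cKO libraries, against 11.7, 12.2 and 10.1 TPM in WT libraries, and was called higher in cKO (log2 difference 0.63 ± 0.10, adjusted p = 0.0146 by limma). The call was lost without each cKO library in turn (adjusted p = 0.0520 to 0.0647). Voom on recovered reads kept it (0.0050). The part of the shared bases in the values of Nr1d1 or Thra was not tested.

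Nr1d2 (chromosome 14, 18204054 to 18239127, minus strand), the paralog of Nr1d1, varied little. It had 24.3, 28.4 and 28.9 TPM in cKO libraries, against 24.8, 22.6 and 26.3 TPM in WT libraries. The log2 difference was 0.14 ± 0.10 (adjusted p = 0.517 by limma), with a 95% interval of 0.937-fold to 1.30-fold. The cKO range of Nr1d2 overlapped its WT range, with 2 cKO libraries above all WT libraries.

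Dbp (chromosome 7, 45705088 to 45710203, plus strand) encodes a PAR bZIP factor whose transcription follows Clock and Bmal1 closely in most tissues. It had 4.13, 8.36 and 7.81 TPM in cKO libraries, against 4.65, 3.54 and 7.20 TPM in WT libraries. One cKO library lay inside the WT range, and 2 lay above it. The log2 difference was 0.34 ± 0.30 (95% interval -0.38 to 1.05, adjusted p = 0.623 by limma), and it was 0.14 without WT 2 and 0.61 without cKO 1. Dbp shares 539 exonic bases, 18.0% of its own, with Sphk2 on the opposite strand, and Sphk2 had 36.7, 41.8 and 43.2 TPM in cKO libraries, against 38.5, 36.8 and 35.1 TPM in WT libraries. The log2 difference of Sphk2 was 0.13 ± 0.09 (adjusted p = 0.463 by limma).

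**Figure D2:**
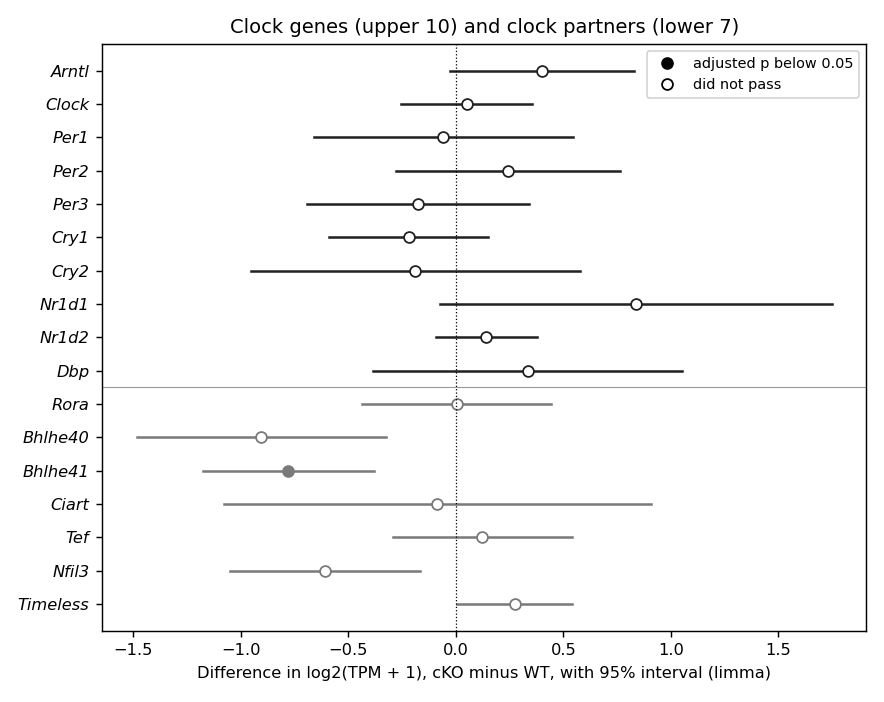
Log2 difference (cKO minus WT, log2(TPM + 1) scale) of the 10 clock genes and, under the grey line, 7 clock partners, with the 95% interval from limma as a bar and a filled point where the adjusted p passed 0.05. All 10 intervals of the clock genes include 0, that of Nr1d1 is the widest, from -0.07 to 1.75, and Bhlhe41 at -0.78 is the only filled point.

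The libraries of a genotype differed from each other in which clock genes were high. Library cKO 2 had the highest Per1, Nr1d1 and Dbp of all 6 libraries, the lowest Per3, and the lowest Arntl among cKO. Library cKO 1 had the highest Arntl and the lowest Per1 and Cry1. Library cKO 3 had the highest Per2 and Nr1d2. WT 1 had the highest Clock, Per3, Cry1 and Cry2 and the lowest Per2 and Nr1d1, WT 2 had the lowest value of 5 members and the highest of none, and WT 3 had neither for any member.

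**Figure D3:**
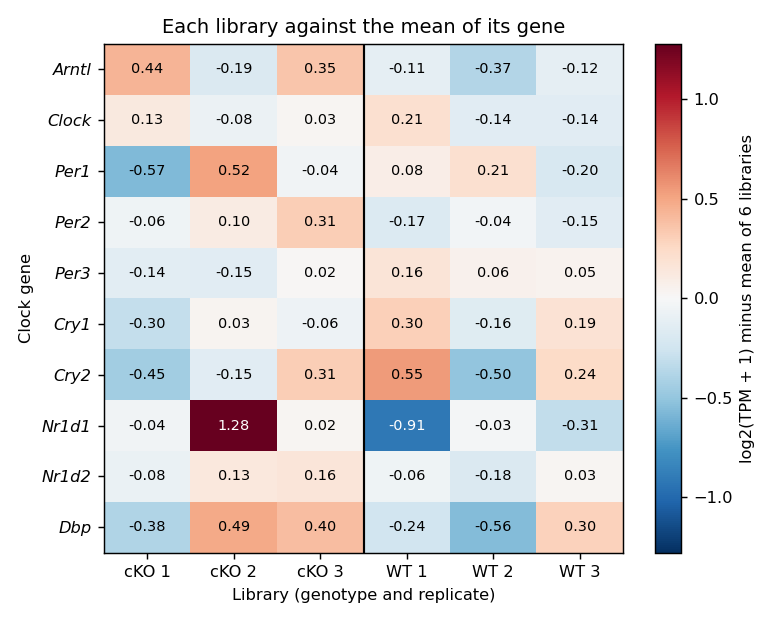
Level of each clock gene in each library on the log2(TPM + 1) scale, as the difference from the mean of that gene over the 6 libraries (colour), with cKO libraries left of WT libraries. Nr1d1 in cKO 2 is the strongest positive cell, and no row but that of Per3 separates the genotypes.

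Ratios within a library do not depend on its total, and they set opposed arms of the loop against each other. The log2 ratio of Nr1d1 over Arntl was -0.31, 1.74 and -0.15 in cKO libraries, against -0.67, 0.58 and -0.00 in WT libraries. It was highest in cKO 2, and WT 2 came next. Ciart, a repressor of Clock and Bmal1 outside the 10 genes that is named after its values were seen, had its highest values in these same libraries, with 7.73, 12.6 and 4.34 TPM in cKO libraries, against 6.15, 14.4 and 5.87 TPM in WT libraries. Replicate numbers do not pair the mice, so that cKO 2 and WT 2 are not linked by the design. The log2 ratio of Dbp over Arntl was -2.11, -0.43 and -1.11 in cKO libraries, against -1.36, -1.47 and -0.72 in WT libraries, with means of -1.22 ± 0.85 in cKO and -1.18 ± 0.40 in WT (SD). The genotypes overlapped for both ratios, and the difference in spread was not tested. The log2 ratio of Per3 over Arntl was -3.76, -3.10 and -3.40 in cKO libraries, against -2.67, -2.56 and -2.85 in WT libraries, with no overlap. That ratio was chosen after the values of its genes were seen, and no test was made of it.

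The spread between mice was set beside that of all genes and beside read counting, which is only part of the spread between separate mice. The residual SD within genotypes on the log2 scale had a median of 0.23 over the members and 0.16 over all genes tested, and 7 of 10 members were above the value for all genes. In cKO, the coefficient of variation was 58.8% for Nr1d1, where counting alone gives 7.7%, and 37.5% for Per1, where counting gives 2.1%. In WT, it was 31.9% for Nr1d1, where counting gives 10.6%, and 14.2% for Per1, where counting gives 2.0%. Dbp varied by 33.9% in cKO and 36.6% in WT, where counting gives 17.0% and 18.9%, and Cry2 by 35.0% in cKO and 42.6% in WT, where counting gives 15.6% and 13.6%. Because the recovered reads are lower bounds, these counting values are upper estimates.

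**Figure D4:**
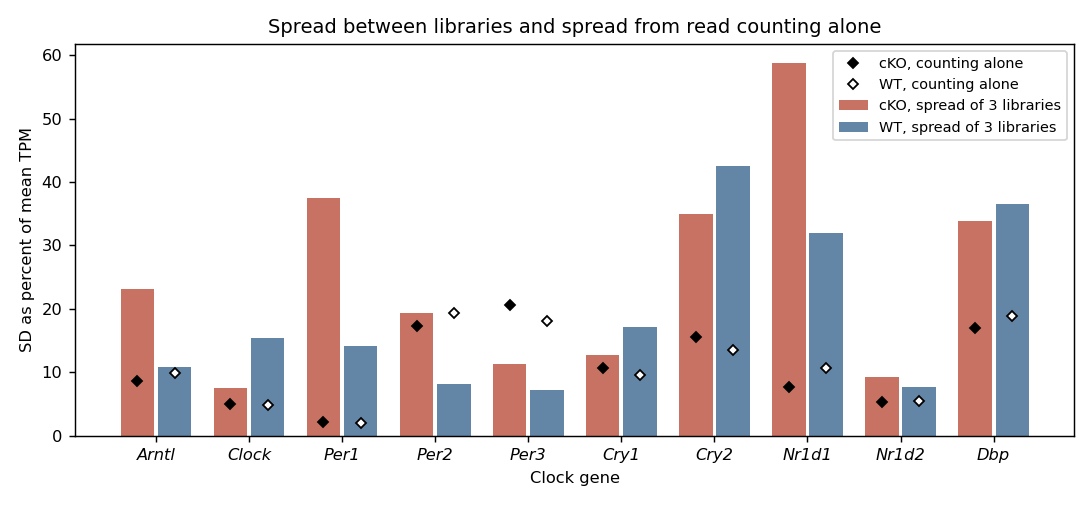
Coefficient of variation (%) of each clock gene over the 3 libraries of a genotype, cKO and WT, as bars, with the value expected from read counting alone as diamonds. Nr1d1 and Per1 in cKO lie far above their counting values, 58.8% against 7.7% and 37.5% against 2.1%, whereas Per3 lies below its counting value in both genotypes.

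Per2 and Per3, the rarest members, varied by about what counting gives, or less. Per3 varied by 11.3% in cKO and 7.3% in WT, under the 20.6% and 18.1% that counting alone would give. Per2 varied by 19.3% in cKO and 8.2% in WT, where counting gives 17.3% and 19.4%. At this depth a spread between mice beyond counting was not detectable for Per3. Clock and Nr1d2, with 2480 and 2092 reads over the 6 libraries, were the members with the narrowest intervals.

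The other proteins of the loop were listed as clock partners, of which 7 of 12 genes were tested. The others were not analysed here. At an unadjusted p under 0.05 limma gave 4 of the 7, against 19.6 percent of all genes. Voom called 3 of the 7, against 8.41 percent of all genes, and the median log2 difference was -0.09, against 0.04 over all genes. Of the 7, limma called 0 higher and 1 lower in cKO, where 4.38 percent of all genes were called higher and 1.87 percent lower. The gene that fell was Bhlhe41, which encodes Dec2, a repressor that competes with Clock and Bmal1 at E-boxes such as the one printed above for its own promoter. Bhlhe41 had 5.14, 6.76 and 4.42 TPM in cKO libraries, against 8.85, 10.3 and 10.7 TPM in WT libraries. The genotypes did not overlap, and the log2 difference was -0.78 ± 0.17 (adjusted p = 0.042 by limma). The call was lost when each library other than cKO 2 was left out (adjusted p = 0.0815 to 0.145), under quantile scaling (0.0512) and without the variance trend (0.0561). Voom on recovered reads called Bhlhe41 (adjusted p = 0.0045). Bhlhe41 shares 1280 exonic bases, 19.0% of its own, with Gm43909 on the opposite strand. Gm43909 rested on 46 recovered reads over all libraries, and its genotypes overlapped. The log2 difference of Gm43909 was -0.77 ± 0.35 (adjusted p = 0.289 by limma), close in size to that of Bhlhe41. The part of the shared bases in the values of Bhlhe41 or Gm43909 was not tested.

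2 further repressors of the list leaned the same way without passing the limma test, and they are named after their values were seen. Bhlhe40, which encodes Dec1, had 89.9, 144.5 and 66.5 TPM in cKO libraries, against 181.6, 177.7 and 178.2 TPM in WT libraries (log2 difference -0.90 ± 0.25, adjusted p = 0.091 by limma). Nfil3, which encodes the D-box repressor E4bp4, had 122.8, 181.9 and 104.3 TPM in cKO libraries, against 202.6, 190.5 and 215.9 TPM in WT libraries (log2 difference -0.61 ± 0.19, adjusted p = 0.125 by limma). For both, all cKO libraries were below all WT libraries and cKO 2 was nearest to WT, and the genotypes did not overlap for 4 of the 7 partners, against 25.2 percent of all genes. The remaining partner without overlap was Timeless, with 9.69, 9.79 and 8.70 TPM in cKO libraries, against 7.83, 7.72 and 7.22 TPM in WT libraries. The part of the endothelial, Kupffer cell and lipid-associated macrophage markers in these differences was not tested.

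None of the tested genes in the lists of clock kinases and ubiquitin ligases and of clock cofactors passed the test. Of 11 listed kinases, ubiquitin ligases and the deubiquitinase Usp2, 10 were tested (Fbxl21 was not analysed here). Limma called 0 of them in either direction, against 6.24 percent of all genes, with a median log2 difference of 0.04. At an unadjusted p under 0.05 limma gave 1 of the 10, against 19.6 percent of all genes. Voom called 0 of the 10, against 8.41 percent of all genes. Usp2 had 10.2, 11.7 and 12.3 TPM in cKO libraries, against 8.18, 9.05 and 8.61 TPM in WT libraries (0.36 ± 0.12, adjusted p = 0.136). Fbxw11, a subunit of the ligase that degrades Per proteins, differed by 0.12 ± 0.06 (adjusted p = 0.327). Of 9 cofactors, 0 were called by limma in either direction, against the same 6.24 percent, with a median of 0.10. Among them 1 had an unadjusted p under 0.05 by limma and 0 were called by voom, against the same 19.6 and 8.41 percent. The genotypes did not overlap for 2 of the 10 and 3 of the 9 genes, among them Usp2, Nono and Ep300, all higher in cKO, against 25.2 percent of all genes. The cofactors with the smallest p were Nono, a Per-binding RNA-binding protein, at 0.14 ± 0.05 (adjusted p = 0.194), and the acetyltransferase Ep300 at 0.28 ± 0.12 (adjusted p = 0.264).

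Of 7 clock outputs, 1 was called higher and 0 lower in cKO, where 4.38 percent of all genes were called higher and 1.87 percent lower, with a median log2 difference of 0.20, against 0.04 over all genes. The called gene was Tspan4, a tetraspanin, with 54.8, 70.2 and 69.2 TPM in cKO libraries, against 42.8, 46.3 and 46.7 TPM in WT libraries (0.50 ± 0.11, adjusted p = 0.039 by limma). Its call was lost under median-of-ratios scaling (0.0810), quantile scaling (0.0703), without the trend (0.0902), and when each library other than cKO 1 was left out (0.0931 to 0.136). Voom on recovered reads kept it (0.023). Among the 7 outputs, limma gave 3 an unadjusted p under 0.05, against 19.6 percent of all genes. Voom called 1 of the 7, against 8.41 percent.

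Of 7 genes known as Rev-erb targets in macrophages, 1 was called higher and 0 lower in cKO, where 4.38 percent of all genes were called higher and 1.87 percent lower, with a median log2 difference of 0.52, against 0.04 over all genes. The called gene was Il18, an inflammasome-processed cytokine, with 101.0, 97.7 and 87.8 TPM in cKO libraries, against 43.7, 55.3 and 65.5 TPM in WT libraries (0.81 ± 0.14, adjusted p = 0.020 by limma). Its call was lost without any 1 cKO library or without WT 2 (0.0515 to 0.0857) and without the trend (0.0560). Voom on recovered reads kept it (0.0048). At an unadjusted p under 0.05 limma gave 4 of the 7, against 19.6 percent of all genes, and voom called 2 of the 7, against 8.41 percent. The genotypes did not overlap for 3 of the 7, against 25.2 percent of all genes. Il18 and Mmp9 were higher and Il1b lower in cKO. Il1b, named after its values were seen, differed by -0.34 ± 0.11 (adjusted p = 0.136 by limma). The differences of Il6, Mmp9, Ccl2, Nlrp3 and Cx3cr1 were 1.03, 0.81, 0.52, 0.09 and 0.07, and none was called. Il18 is also expressed by Kupffer cells, whose markers were higher in cKO, and their part in its difference was not tested.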

How the data were processed

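Liver macrophages of 3 Lyz2cre/+.Egr2fl/fl and 3 Egr2fl/fl mice on CDA-HFD were profiled by bulk RNA-seq with 1 library per mouse. The library called WT 3 here is replicate 3 by its label, and its deposited column is named WT4. Per the labels and methods, the authors used Trimmomatic 0.39.0 for trimming, HISAT2 2.2.1 for alignment to the GRCm38 (mm10) build and featureCounts 2.0.1 for counting after duplicate reads were dropped, and they deposited the values as TPM. In this unit a rise of abundant genes lowers all others, and dropping duplicates can lower the most abundant genes.

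The clock genes and the other lists were chosen with earlier results of these data known. The text names all 10 members, and of each pathway list up to 4 called genes by smallest p or, with none called, the 2 of smallest p. Other genes of these lists whose values or direction are given were named after their values were seen. The deposited TPM were fitted for the 13777 genes that averaged 1 TPM or more by limma 3.58.1 (lmFit, eBayes with trend, R 4.3.3) on log2(TPM + 1), with a pseudocount of 1, no covariates, 2-sided, with Benjamini-Hochberg adjustment over all genes. Differences on this scale understate the change of low genes. The fitting step was tested on simulated data. Values after ± are SD for TPM and SE for log2 differences.

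Whole reads were recovered from the TPM steps for all 13886 genes (tolerance 0.001 of a read). They are lower bounds, since a factor common to all libraries of a gene is lost. They gave the counting intervals, which cover counting error only, and the voom alternative. Other alternatives were pseudocounts, filters on low values, scalings, variance models, a replicate block and each library left out. Gene positions came from GENCODE on GRCm38.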

Additional observations from a re-analysis of the deposited data

How the results depend on the processing

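Over 17 alternatives, 0 of 167 values of clock genes passed the threshold, 0 clock genes were called higher or lower under any, and 7 of 10 members kept their sign throughout. Clock turned to -9.2e-07 under median-of-ratios scaling and -0.024 under quantile scaling, and ranged from -0.0072 to 0.17 when 1 library was left out. Per1 ranged from -0.33 to 0.21 and Cry2 from -0.49 to 0.036 when 1 library was left out. The cause was not tested. Over all genes, 603 were higher and 257 lower in cKO. Leaving out 1 library gave 300 to 422 higher and 134 to 195 lower, where fewer samples entered the fit, and the fit without the variance trend gave 160 lower. Scaling moved the median of all genes by -0.05 at most.

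The replicate number as a block gave 301 genes higher and 130 lower and 0 clock genes. Deviations of same-numbered libraries correlated at -0.03, 0.07 and -0.01, so the libraries share only a number. Under the block, Bhlhe41 (adjusted p = 0.0903), Il18 (0.0705), Thra (0.0583) and Junb (0.0794) were not called.

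Depth limits Per2 and Per3, with 181 and 164 reads over 6 libraries. With 3 mice per genotype and no sampling hour in the sources used here, a change of level and a change of phase cannot be told apart.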

Other observations

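Signals that act on Per1 outside the loop were also listed. Of 10 immediate early and cAMP-responsive genes, 0 were called higher and 1 lower in cKO, where 4.38 percent of all genes were called higher and 1.87 percent lower, with a median log2 difference of 0.11. The gene that fell was Junb, an AP-1 subunit, with 1962, 2113 and 1941 TPM in cKO libraries, against 2431, 2373 and 2534 TPM in WT libraries (-0.29 ± 0.05, adjusted p = 0.020 by limma). Its call was lost without the variance trend (0.103) and when 1 of 4 libraries was left out (0.0647 to 0.0950), which were cKO 1, cKO 3, WT 1 and WT 3. Voom on recovered reads kept it (0.0044). Fos, another AP-1 subunit, named after its values were seen, had 2631, 2681 and 2425 TPM in cKO libraries, against 2365, 2586 and 2195 TPM in WT libraries. Junb and Fos were thus high in all 6 libraries. At an unadjusted p under 0.05 limma gave 4 of the 10, against 19.6 percent of all genes, and voom called 2 of the 10, against 8.41 percent. The genotypes did not overlap for 4 of the 10 genes, against 25.2 percent of all genes. Egr1 and Ier2 were higher and Junb and Crem lower in cKO. Egr1, also named after its values were seen, had 175.7, 230.3 and 154.1 TPM in cKO libraries, against 93.8, 82.3 and 143.5 TPM in WT libraries (0.82 ± 0.22, adjusted p = 0.091 by limma).

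Of 8 glucocorticoid-responsive genes, 0 were called by limma in either direction, against 6.24 percent of all genes. At an unadjusted p under 0.05 limma gave 3 of the 8, against 19.6 percent of all genes. Voom called 2 of the 8, against 8.41 percent of all genes. The median log2 difference was 0.50, against 0.04 over all genes. Fkbp5, a co-chaperone of the glucocorticoid receptor, had 23.8, 29.8 and 49.8 TPM in cKO libraries, against 16.4, 15.5 and 15.0 TPM in WT libraries, with no overlap (1.02 ± 0.24, adjusted p = 0.056). It passed with a filter of at least 5 TPM (0.0435), without cKO 1 (0.0396), without cKO 3 (0.0395) and by voom on recovered reads (0.0137). Cdkn1a, a cell cycle inhibitor, differed by -0.45 ± 0.13 (adjusted p = 0.109 by limma) and passed by voom (0.0275).

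Genes whose pattern over the 6 libraries lay nearest to a member were found by the root-mean-square difference of z-scores among the 10208 genes that averaged 5 TPM or more. Nearest to Arntl were Lrrc61 (0.12), Gmeb1 (0.13) and Sptan1 (0.15), and nearest to Dbp were Gmpr (0.20), Aamp (0.23) and As3mt (0.28). None of the 6 is in the clock lists used here.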
